A study of Homo sapiens with 12 samples.

Results

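The 10 genes MPO, ELANE, PRTN3, AZU1, CTSG, LYZ, SRGN, BPI, RNASE2 and CFD encode contents of the primary (azurophil) granule of neutrophils, together with serglycin, the proteoglycan that packs them. They were taken by symbol from a table of 58233 genes, and each symbol matched 1 row. Expression was measured by RNA sequencing of poly(A) RNA from HL-60, a long-established line of human acute myeloid leukaemia cells labelled wild type, in 12 libraries. Untreated cells, cells given 100 nM all-trans retinoic acid (ATRA, a ligand of the retinoic acid receptors), cells given 500 nM palbociclib (which inhibits the cell cycle kinases CDK4 and CDK6) and cells given both drugs had 3 libraries each, all taken 3 h after treatment. The untreated group was not labelled as having received a vehicle, and all libraries came from 1 cell line. Values are RPKM, reads scaled for gene length and library size, which the authors rounded to whole numbers. A gene at 0 thus lies below a rounding step of 1 RPKM. The study gives an average read number per sample, but the depth of each library is unknown.

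Primary granules are the first granules to form in the neutrophil lineage, at the promyelocyte stage, and many of their contents are made mainly at that stage. Myeloperoxidase (MPO) makes hypochlorous acid, the serine proteases elastase, proteinase 3 and cathepsin G (ELANE, PRTN3, CTSG) cut microbial and matrix proteins, and azurocidin (AZU1) is a relative of these proteases that has lost catalytic activity. Serglycin (SRGN) carries glycosaminoglycan chains that hold the basic proteins in the granule. In the granulocyte lineage the genes are known targets of C/EBP factors, PU.1, RUNX1 and MYB, and ATRA is known to drive HL-60 cells towards neutrophils over days, a longer time than was sampled here.

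HL-60 is a promyelocyte-like line. The 6 genes checked for it, CD33, ANPEP, SPI1, CEBPA, MYB and FUT4, were all at 5 RPKM or more. They are myeloid or progenitor genes not confined to promyelocytes, so they do not set the stage. Of 27 markers of eosinophils, monocytes, lymphocytes, erythroid cells, megakaryocytes, stem cells, fibroblasts and epithelium, 23 were at 0 in all 12 libraries and the highest value of the other 4 was 1. Of these, the B cell marker CD79A was at 1 RPKM in all 6 libraries with ATRA and at 0 in the 6 without, and the part of such cells in the results was not tested. DHRS3, 1 of 5 retinoid-responsive genes checked, was at 0 to 1 RPKM in untreated cells and at 40 to 48 with ATRA. HIC1 was at 0 RPKM in untreated cells and at 8, 11 and 10 with ATRA. CYP26A1, RARB and TGM2, the rest of that list, were at 0 in all 12 libraries. CCNE1, a target of the E2F factors downstream of CDK4 and CDK6, was at 13 to 15 RPKM in untreated cells and at 5 in all 3 palbociclib libraries. CCNE1 was lower with ATRA alone too, at 9, 8 and 8 RPKM. The libraries of a group were not duplicates, as any 2 of them shared the same whole number at 16.2% to 34.2% of 7055 genes. The study's methods describe its data in general as coming from independent experiments and the sequencing as triplicates, and the labels do not say whether these 3 libraries of a group were separate cultures. If they were not, p-values measure only a technical spread.

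In untreated cells the 10 genes spanned the range from undetected to some of the most abundant transcripts. MPO stood at 1346 ± 81.7 RPKM (SD, n = 3), place 26 among the 14019 genes above 0, LYZ (lysozyme, which cuts bacterial cell walls) at 1011 ± 126 in place 33, and SRGN at 686 ± 47.6 in place 52. PRTN3 followed at 222 ± 28.1 RPKM in place 192, then RNASE2, the eosinophil-derived neurotoxin, a ribonuclease, at 51.7 ± 3.06. CTSG was at 21.0 ± 3.61 RPKM, AZU1 at 13.3 ± 0.577 and CFD, complement factor D, a serine protease of the alternative complement pathway, at 7.67 ± 1.53. BPI, the bactericidal permeability-increasing protein, was at 1 RPKM in each untreated library and ELANE at 0. No neighbours in this order overlapped between their libraries. MPO, LYZ and SRGN together made up 90.3% to 90.9% of the summed RPKM of the 10 genes in untreated cells, and the 10 genes made up 0.854% to 1.01% of the summed RPKM of the table.

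ELANE and BPI stayed near the rounding step throughout. ELANE was at 1 RPKM in ATRA libraries 1 and 2, in palbociclib library 1 and in libraries 1 and 2 with both drugs, and at 0 in the other 7. BPI was at 1 RPKM in 11 libraries and at 2 in library 3 with both drugs. Neither reached 5 RPKM in 3 libraries, the minimum chosen for a test, and so near the rounding step a change in these 2 genes could not be assessed. The other 8 genes were at 6 RPKM or more in every library and were tested among 7820 genes with limma on log2(RPKM + 0.1). A change was called at a Benjamini-Hochberg adjusted p under 0.001 over all genes tested, and 0.05 served as a second threshold. "Rose" and "fell" are used for the first of these.

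**Figure D1:**
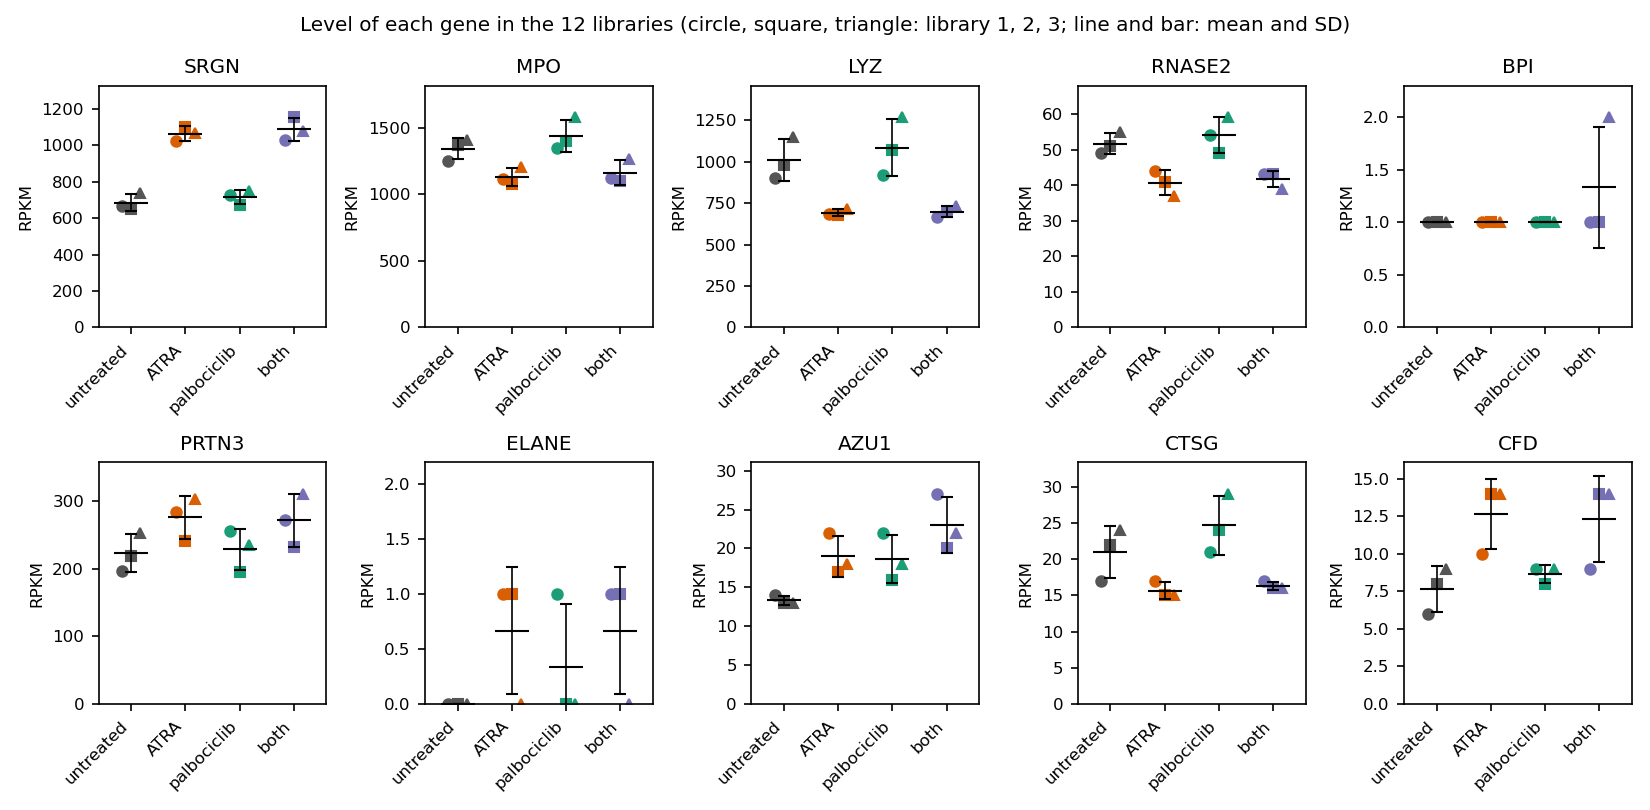
RPKM (vertical axes, from 0, each with its own scale) of the 10 genes in the 12 libraries, by treatment (horizontal axes); circles, squares and triangles are libraries 1, 2 and 3, and lines with bars are the mean and SD of 3 libraries. The 6 SRGN values with ATRA lie at 1022 or more and the 6 without at 751 or less, the 6 LYZ values with ATRA lie below every value without it, and ELANE and BPI stay at 0 to 2.

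AZU1, PRTN3, ELANE and CFD lie in this order on the plus strand of chromosome 19, within 42788 bases. In hg38 with GENCODE v44 the genes span chr19:825097-832018, chr19:840999-848175, chr19:851014-856247 and chr19:859453-867884. Over this short row the untreated level went from 13.3 RPKM at AZU1 to 222 at PRTN3, then to 0 at ELANE and to 7.67 at CFD. ELANE, between PRTN3 and CFD, was the lowest of the 4 in all 12 libraries. The flanking gene PLPPR3 was at 25 to 33 RPKM over the 12 libraries and PTBP1, beyond it, at 89 to 98. CFD shares 255 exonic bases with MED16 on the opposite strand, which was at 8 to 10 RPKM in all libraries. The library kit is not stated to mark strand, so reads from the shared bases cannot be told apart.

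**Figure D2:**
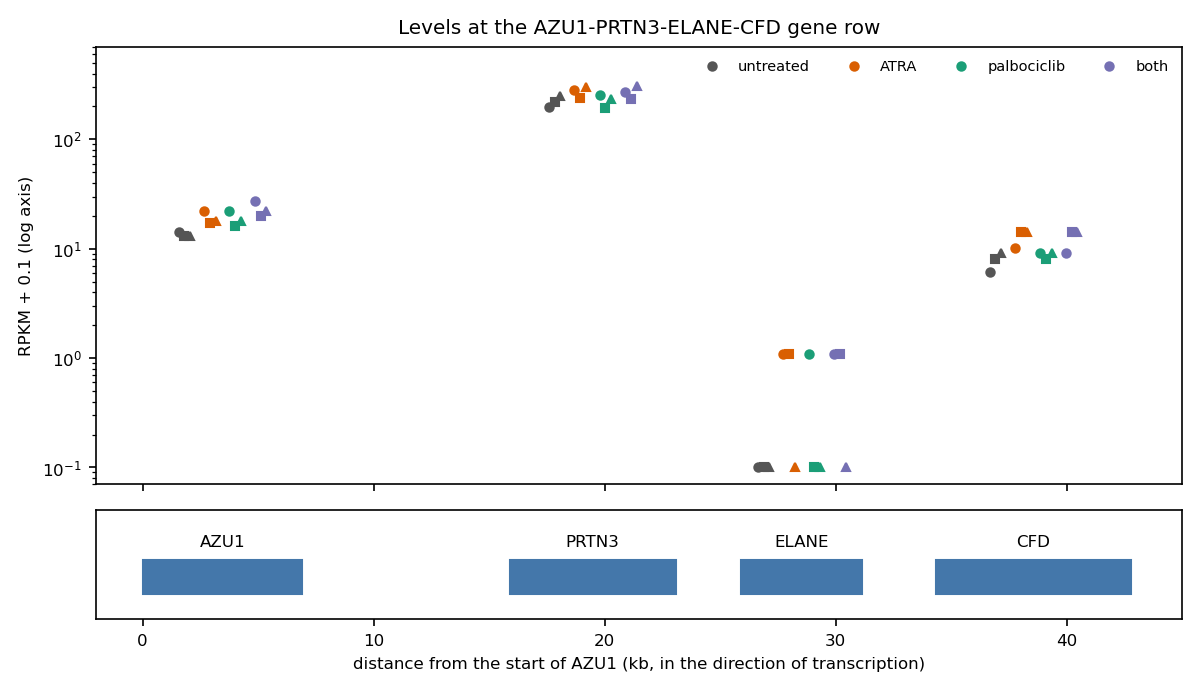
RPKM + 0.1 on a log axis (vertical) of AZU1, PRTN3, ELANE and CFD in the 12 libraries, drawn at each gene's place along chromosome 19 (horizontal, kb from the start of AZU1), with the gene spans as boxes below; circles, squares and triangles are libraries 1, 2 and 3. PRTN3 lies at 195 to 310 RPKM and ELANE, the next gene along, at 0 or 1.

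The other genes are on separate chromosomes or far apart. MPO is at chr17:58269855-58280935 (minus strand), LYZ at chr12:69348381-69354234, SRGN at chr10:69088103-69104805 and BPI at chr20:38304150-38337505 (plus strand). CTSG, at chr14:24573518-24576250 on the minus strand, and RNASE2, at chr14:20955487-20956436 on the plus strand, are both on chromosome 14. An antisense non-coding gene shares 599 exonic bases with LYZ and was at 0 in all libraries. RNASE2 has a close relative, RNASE3, which was at 1 to 3 RPKM, and reads that fit both could have been split or dropped in counting, so both values are uncertain to that extent.

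RefSeq promoter entries were at hand for PRTN3, AZU1, CTSG, RNASE2 and CFD, and for MPO, ELANE, LYZ, SRGN and BPI there was no entry. The 250 bases before the RefSeq start of 4 of these genes are shown because PRTN3 and AZU1 are neighbours whose levels differed over 10-fold in untreated cells, and because CTSG and RNASE2 are both on chromosome 14. CFD is not shown, since 80 bases of its window lie in exons. The RefSeq start of AZU1 lies inside the GENCODE v44 span given above, so the AZU1 window falls within that span. Positions are counted from the RefSeq start. Each sequence is GRCh38.p14, 5′ to 3′ on the gene's own strand. Capitals mark matches, on either strand, to GAGGAA (PU.1), TTNNGNAA (C/EBP) and TATAA (TATA box). TGTGGT (RUNX) and AGGTCA (a half-site of retinoic acid receptors) were searched too, and no 2 matches overlapped.
PRTN3, chr19:840749-840998, plus strand: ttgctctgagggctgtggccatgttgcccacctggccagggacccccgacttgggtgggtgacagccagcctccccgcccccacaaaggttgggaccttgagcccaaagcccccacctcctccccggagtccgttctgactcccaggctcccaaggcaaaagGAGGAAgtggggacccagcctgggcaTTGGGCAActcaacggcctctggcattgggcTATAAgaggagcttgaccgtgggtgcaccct
AZU1, chr19:827587-827836, plus strand: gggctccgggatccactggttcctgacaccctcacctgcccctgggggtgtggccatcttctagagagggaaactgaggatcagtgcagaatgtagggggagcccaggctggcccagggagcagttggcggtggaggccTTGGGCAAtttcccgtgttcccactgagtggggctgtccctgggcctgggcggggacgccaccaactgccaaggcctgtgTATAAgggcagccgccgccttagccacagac
CTSG, chr14:24576251-24576500, minus strand: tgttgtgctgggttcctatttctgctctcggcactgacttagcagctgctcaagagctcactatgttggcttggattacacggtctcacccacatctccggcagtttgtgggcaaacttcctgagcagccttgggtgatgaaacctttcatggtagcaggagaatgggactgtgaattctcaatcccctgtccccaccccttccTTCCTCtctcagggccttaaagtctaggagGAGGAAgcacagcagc
RNASE2, chr14:20955237-20955486, plus strand: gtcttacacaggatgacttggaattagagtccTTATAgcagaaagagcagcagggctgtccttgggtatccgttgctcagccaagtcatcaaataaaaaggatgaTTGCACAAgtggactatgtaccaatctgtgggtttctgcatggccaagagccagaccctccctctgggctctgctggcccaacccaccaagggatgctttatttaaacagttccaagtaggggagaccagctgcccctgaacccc

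PRTN3 had a TATAA at -31 to -27 from the start, the letters TTGGGCAA at -62 to -55 and GAGGAA at -88 to -83. AZU1 had the same TATAA position, -31 to -27, and the same C/EBP letters, TTGGGCAA, at -111 to -104, with no GAGGAA match. CTSG held 2 PU.1 matches, at -46 to -41 on the opposite strand and at -16 to -11, and neither of the other motifs. RNASE2 had TTGCACAA, a C/EBP match, at -145 to -138 and a TATA match at -218 to -214, both on the opposite strand. TGTGGT and AGGTCA did not occur in these 4 windows. Such short motifs are common, as GAGGAA occurred in 23.6% of 35116 promoters of the same length, TTNNGNAA in 33.2%, TATAA in 18.9%, AGGTCA in 12.1% and TGTGGT in 11% of them. The matches describe letters only and do not show that a factor binds there.

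To see how ATRA alone acted on the granule genes, ATRA-treated cells were compared with untreated cells. SRGN rose, LYZ and RNASE2 were lower and AZU1 and CFD higher at the second threshold, and MPO, CTSG and PRTN3 passed neither. Of the 8 genes tested, 1 was called, against 4.72% of all 7820 genes, and 5 passed the second threshold (3 higher and 2 lower), against 20.3% of all genes (8.71% higher and 11.6% lower). The 3 ATRA libraries did not overlap with the 3 untreated ones for 6 of the 8 genes, against 29.6% of all genes. The estimated differences were positive for 4 genes and negative for 4, 3 of them past neither threshold. Their median log2 difference was 0.03, while the median of its size was 0.45 against 0.16 over all genes tested. These are bulk libraries, in which fewer cells of a kind and less RNA per cell cannot be told apart.

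Serglycin was the granule gene that changed most clearly. SRGN was measured at 666, 651 and 740 RPKM in untreated libraries 1, 2 and 3, and at 1022, 1102 and 1069 in the ATRA libraries. All 3 ATRA values lay above all 3 untreated values, with a gap several times the SD of either group (47.6 and 40.2 RPKM). The log2 difference was 0.64 ± 0.07 (SE), which is 1.55-fold with a 95% interval of 1.39 to 1.73 (limma adjusted p = 0.000131). The adjusted p rose above 0.001 when untreated library 1 (0.00114), untreated library 2 (0.00107), ATRA library 2 (0.00125) or ATRA library 3 (0.00106) was left out, and to 0.00464 in a fit of these 2 groups alone. The log2 difference was 0.60 to 0.64 in these fits.

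Lysozyme and the ribonuclease lay lower with ATRA. LYZ was at 902, 982 and 1149 RPKM in untreated cells and at 682, 677 and 717 with ATRA, so its ATRA values were lower and closer together than the untreated ones, without overlap. The log2 difference was -0.54 ± 0.12, or 0.688 times the untreated level (0.576 to 0.821, adjusted p = 0.00738). RNASE2 was at 49, 51 and 55 RPKM untreated and at 44, 41 and 37 with ATRA, again without overlap. Its log2 difference was -0.35 ± 0.09 (adjusted p = 0.0156).

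As SRGN and LYZ lay on opposite sides, their order turned over within each library. The ratio of SRGN to LYZ was 0.738, 0.663 and 0.644 in untreated libraries 1, 2 and 3 and 1.49 to 1.63 in the ATRA libraries. SRGN thus took second place among the 10 genes, at 1064 ± 40.2 RPKM (place 34 in the table), ahead of LYZ at 692 ± 21.8 (place 52). The libraries of SRGN and MPO overlapped with ATRA, so that first and second place could not be separated there.

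**Figure D3:**
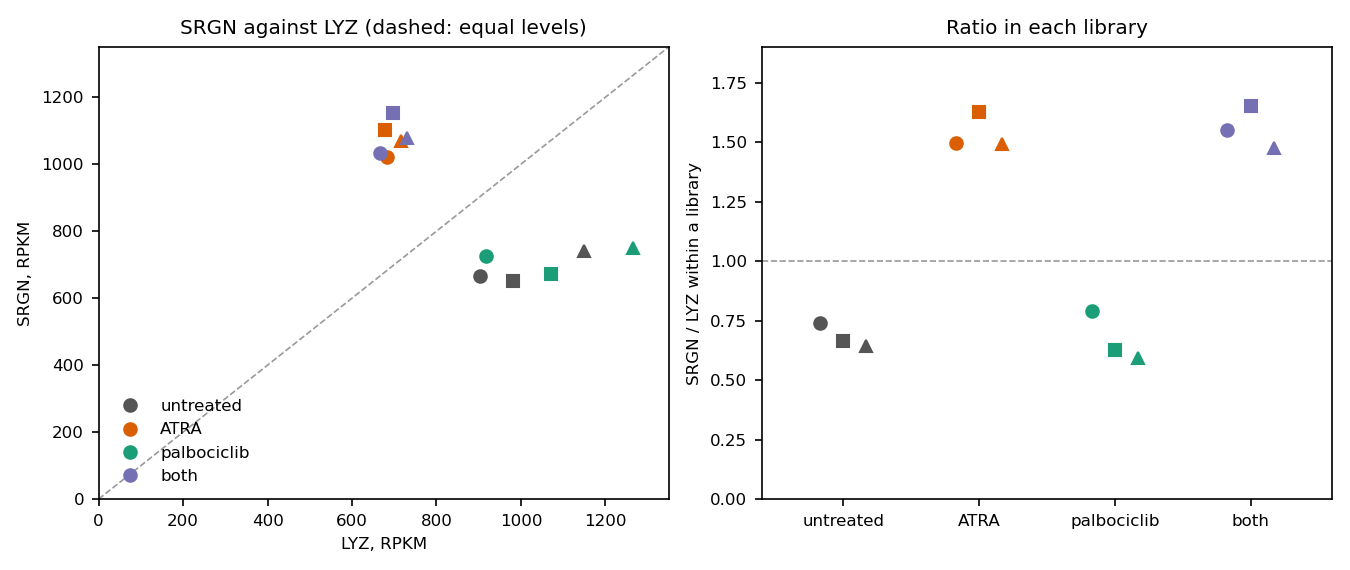
Left, SRGN against LYZ in each library (both in RPKM, dashed line at equal levels); right, the ratio of SRGN to LYZ within each library by treatment, with a dashed line at 1; colours are treatments, and circles, squares and triangles are libraries 1, 2 and 3. The 6 libraries with ATRA have ratios of 1.48 to 1.65 and the 6 without ATRA have ratios of 0.593 to 0.791.

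Myeloperoxidase, the most abundant of the genes, differed little. MPO was at 1254, 1372 and 1411 RPKM in untreated cells and at 1116, 1077 and 1205 with ATRA, where all 3 values lay below the lowest untreated one. The log2 difference of -0.25 ± 0.08, or 0.842 times the untreated level, did not pass either threshold (adjusted p = 0.0625). Its 95% interval was 0.739 to 0.959.

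Among the serine protease family and its relatives, AZU1 and CFD passed the second threshold and PRTN3 and CTSG neither, and differences between them were not tested. AZU1 was at 14, 13 and 13 RPKM in untreated cells and at 22, 17 and 18 with ATRA, all above the untreated values. The log2 difference was 0.50 ± 0.14 (adjusted p = 0.0285). PRTN3, its neighbour on chromosome 19, was at 196, 219 and 252 RPKM untreated and at 284, 241 and 303 with ATRA, and the groups overlapped in 1 ATRA library. Its log2 difference of 0.31 ± 0.14 did not pass (adjusted p = 0.147). CTSG, the chymotrypsin-like protease on chromosome 14, was at 17, 22 and 24 RPKM untreated and at 17, 15 and 15 with ATRA, with a shared value of 17. Its log2 difference was -0.41 ± 0.14 (adjusted p = 0.0573). CFD was at 6, 8 and 9 RPKM untreated and at 10, 14 and 14 with ATRA, without overlap, a log2 difference of 0.72 ± 0.20 (adjusted p = 0.0284) in a range where 1 rounding step is a sizeable part of the value.

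Within a library the ratio of PRTN3 to MPO was 0.156 to 0.179 in untreated cells and 0.224 to 0.254 with ATRA, without overlap. The sum over the 10 genes was 3359 ± 277 RPKM untreated and 3255 ± 108 with ATRA, so the total differed by less than the SD of the untreated libraries.

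Palbociclib alone was compared with untreated cells to see whether inhibition of CDK4 and CDK6 acts on these genes within 3 h. None of the 8 genes passed with limma at either threshold, where 0.499% and 4.07% of all genes did, and 1 had an unadjusted p under 0.05, against 17.4% of all genes. That gene was AZU1, at 22, 16 and 18 RPKM with palbociclib, all above the untreated 13 to 14. Its log2 difference was 0.47 ± 0.14 (adjusted p = 0.0936), and it was the only one of the 8 genes without overlap, against 15.2% of all genes. The 8 log2 differences were all positive, from 0.04 to 0.47, with a median of 0.10, and those of PRTN3, LYZ and RNASE2 fell on either side of 0 when single libraries were left out. SRGN was at 726, 672 and 751 RPKM with palbociclib and LYZ at 918, 1071 and 1266, which overlapped the untreated values. Among the 3 most abundant genes the 95% intervals of the difference ran from -0.09 to 0.22 on the log2 scale for SRGN, -0.09 to 0.29 for MPO and -0.16 to 0.35 for LYZ, so larger changes lay outside them.

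CTSG was at 21, 24 and 29 RPKM with palbociclib, RNASE2 at 54, 49 and 59, PRTN3 at 255, 195 and 235, MPO at 1347, 1400 and 1579, and CFD at 9, 8 and 9. Each of these ranges overlapped the untreated one, and their adjusted p-values ran from 0.428 to 0.935. The order of the 10 genes by mean was that of untreated cells, but CTSG overlapped with AZU1 and BPI with ELANE.

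Both drugs together were compared with the same untreated libraries as ATRA alone. SRGN was at 1032, 1153 and 1077 RPKM, all above the untreated values, and rose by 0.67 ± 0.07 on the log2 scale (1.59-fold, limma adjusted p = 6.67e-05). It was the 1 gene called of 8, against 8.04% of all genes. In a fit of these 2 groups alone its adjusted p was 0.00362. Another 4 genes passed the second threshold, making 5 of 8 against 30.4% of all genes.

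AZU1 had its highest values with both drugs, at 27, 20 and 22 RPKM, all above the untreated 13 to 14. The log2 difference was 0.77 ± 0.14, or 1.71-fold (adjusted p = 0.00196). LYZ was at 666, 698 and 730 RPKM, below all untreated values, with a log2 difference of -0.53 ± 0.12 (adjusted p = 0.00581). RNASE2, at 43, 43 and 39 RPKM, lay below all untreated values by a log2 difference of -0.31 ± 0.09 (adjusted p = 0.0193). CFD, at 9, 14 and 14 RPKM, shared the value 9 with the untreated group and had a log2 difference of 0.67 ± 0.20 (adjusted p = 0.0284). MPO (1124, 1099 and 1269 RPKM), PRTN3 (272, 232 and 310) and CTSG (17, 16 and 16) each overlapped the untreated libraries and did not pass, with adjusted p-values of 0.0788 to 0.152. In all, 4 of the 8 genes did not overlap between the groups, against 36% of all genes.

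**Figure D4:**
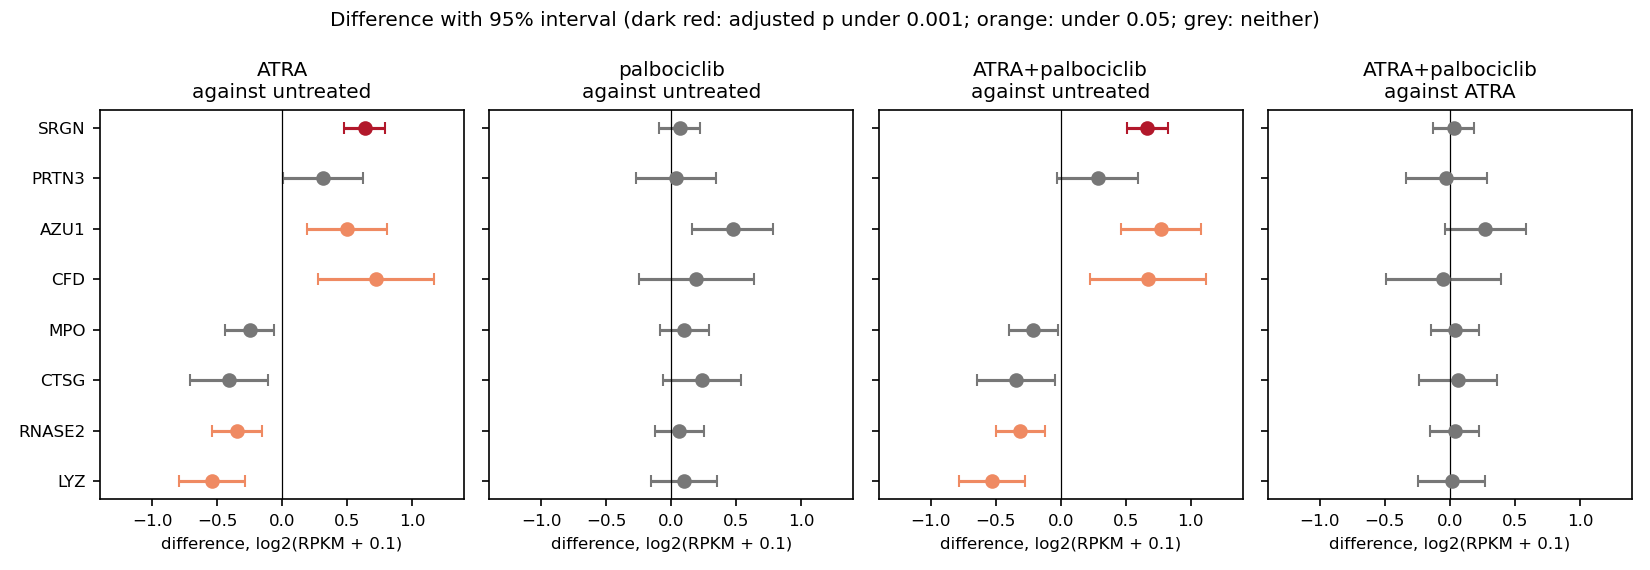
Difference in log2(RPKM + 0.1) (horizontal axes) with its 95% interval for the 8 tested genes (rows) in 4 comparisons; dark red marks an adjusted p under 0.001, orange under 0.05 and grey neither. SRGN is dark red in both comparisons of ATRA-treated with untreated cells (0.64 and 0.67), and no gene is coloured for palbociclib against untreated or for the combination against ATRA.

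Adding palbociclib to ATRA was tested by setting the combination against ATRA alone. No gene of the 8 was called by limma, as was the case for 0 of all 7820 genes, none passed the second threshold, where 0.115% of all genes did, and none had an unadjusted p under 0.05, against 3.67% of all genes. The largest log2 difference was that of AZU1, 0.27 ± 0.14, and the others lay between -0.05 and 0.06. All 8 genes overlapped between these groups, against 3.39% of all genes that did not. For SRGN the interval was -0.13 to 0.19 on the log2 scale and for LYZ -0.24 to 0.27. Deviations of same-numbered libraries correlated at 0.782 to 0.908 between these 2 groups. By library number, AZU1 was at 22, 17 and 18 RPKM with ATRA and at 27, 20 and 22 with both drugs, higher in each pair. In a limma fit with a replicate block, AZU1 had an adjusted p of 0.146, and none of the 8 genes passed either threshold.

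Adding ATRA to palbociclib was tested against palbociclib alone. SRGN rose by 0.60 ± 0.07 on the log2 scale (adjusted p = 0.000247), 1 of the 8 genes against 3.11% of all genes, and no library with both drugs overlapped a palbociclib library. Its adjusted p was 0.00122 without palbociclib library 1, 0.00153 without palbociclib library 2, 0.00189 without library 2 with both drugs and 0.00162 without library 3 with both drugs, and 0.0103 in a fit of the 2 groups alone. LYZ was lower by a log2 difference of -0.62 ± 0.12 (adjusted p = 0.00446). Same-numbered treated libraries deviated together, and in a fit with a replicate block LYZ fell too (adjusted p = 0.000382), making 2 of 8 against 6.15% of all genes. CTSG (-0.58 ± 0.14, adjusted p = 0.0167), RNASE2 (-0.37 ± 0.09, adjusted p = 0.0157) and MPO (-0.31 ± 0.08, adjusted p = 0.0364) lay below the palbociclib libraries without overlap, which made 5 of 8 past the second threshold against 12.5% of all genes. AZU1, PRTN3 and CFD overlapped and did not pass. With the block, AZU1 (adjusted p = 0.00943, 0.227 without it) and CFD (adjusted p = 0.0334, 0.175 without it) were higher at the second threshold, and AZU1 was higher in 3 of 3 same-numbered pairs. The palbociclib libraries of MPO, CTSG and LYZ include the highest values of these genes in the data, 1579, 29 and 1266 RPKM, all in palbociclib library 3.

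Whether the drugs together depart from the sum of their separate log2 effects was tested as the palbociclib effect in ATRA-treated cells less that in cells without ATRA. No gene of the 8 was called, nor any of the 7820, at either threshold, and none of the 8 had an unadjusted p under 0.05, against 3.02% of all genes. The 8 values were all below 0, from -0.24 for CFD to -0.02 for RNASE2, with a median of -0.08, and those of PRTN3, RNASE2, SRGN, MPO and LYZ fell on either side of 0 when single libraries were left out. The widest 95% interval, that of CFD, ran from -0.87 to 0.39.

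For other contents of the primary granule, 7 of 13 genes were too low to test. Of the 6 tested, with ATRA 3 were higher at the second threshold and none was lower, against 8.71% and 11.6% of all genes. GUSB, a glucuronidase, was at 17, 15 and 17 RPKM untreated and 28, 21 and 24 with ATRA (adjusted p = 0.0225). FUCA1, a fucosidase, was at 5 in every untreated library and at 9, 8 and 11 with ATRA (adjusted p = 0.00186), and with both drugs, at 9, 9 and 12, it rose by 0.97 ± 0.15 on the log2 scale (adjusted p = 0.00062). CTSD, the aspartic protease cathepsin D, was at 11 to 15 RPKM untreated and at 16 in each ATRA library (adjusted p = 0.0337). CD63, a membrane protein of the granule, was at 31 to 38 RPKM in all libraries. The defensin genes DEFA1, DEFA1B, DEFA3 and DEFA4 were listed at 0 in all 12 libraries, and as DEFA1, DEFA1B and DEFA3 are near-identical copies whose reads can be dropped in counting, these zeros are uncertain. With palbociclib none of the 6 passed at either threshold.

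Among 3 genes for proteins that process and fold granule proteins, 1 was lower at the second threshold with ATRA. CTSC, the peptidase that activates the serine proteases by removing a dipeptide, was at 24 RPKM in every untreated library and at 22, 20 and 20 with ATRA (log2 difference -0.22 ± 0.06, adjusted p = 0.028). CALR and CANX, chaperones of newly made MPO, were at 457 to 616 and 169 to 226 RPKM over the 12 libraries and overlapped between all groups. Of the 12 genes that build the glycosaminoglycan chains of serglycin, 8 were tested, and with ATRA none rose and 3 were lower at the second threshold, where 11.6% of all genes were. CHST11, a chondroitin sulfotransferase, was at 8, 10 and 10 RPKM untreated and at 6 in all 3 ATRA libraries (adjusted p = 0.0027). CHSY1, a chondroitin synthase, was at 12, 10 and 10 untreated and 7, 7 and 8 with ATRA (adjusted p = 0.00277), and FAM20B, the xylose kinase, at 13, 12 and 11 and 9, 9 and 9 (adjusted p = 0.00752). Of the 8, 6 had negative and 2 positive differences. The positive ones were XYLT1 (0.66 ± 0.32, limma adjusted p = 0.179) and CHPF (0.54 ± 0.20, adjusted p = 0.0865). With a replicate block these 2 passed the second threshold (adjusted p = 0.00197 and 0.00374). CHST11 fell between palbociclib alone (9, 11 and 12 RPKM) and both drugs (6, 6 and 6), by 0.81 ± 0.11 on the log2 scale (adjusted p = 0.000664).

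SERPINB1, the cytosolic inhibitor of neutrophil elastase, proteinase 3 and cathepsin G, was 1 of 2 tested genes in a list of 6 protease inhibitors and showed a larger difference than any of the granule genes. It was at 15, 12 and 14 RPKM in untreated cells, 61, 68 and 75 with ATRA, 21, 15 and 17 with palbociclib and 69, 77 and 88 with both drugs. All 6 libraries with ATRA lay above all 6 without it. SERPINB1 rose 4.95-fold with ATRA (log2 difference 2.31 ± 0.14, adjusted p = 1.54e-06) and 5.67-fold with both drugs. The ratio of SERPINB1 to PRTN3 within a library was 0.0548 to 0.0765 untreated and 0.215 to 0.282 with ATRA. SLPI, a secreted inhibitor of elastase and cathepsin G, was at 257 to 330 RPKM in all libraries and overlapped between the groups.

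The genes of later granules were mostly at 0. Of 11 secondary granule genes, LTF, CAMP, LCN2, MMP8, CRISP3, OLFM4, PGLYRP1 and CEACAM8 were listed at 0 in all 12 libraries, and of 6 gelatinase granule genes 5 were at 0 and MMP25 was at 2 to 4 RPKM. CHI3L1, a chitinase-like protein, was the exception, at 12, 16 and 14 RPKM untreated and 39, 55 and 62 with ATRA, where it rose 3.65-fold (adjusted p = 0.000154). TCN1, the other tested gene of this list, was at 4, 4 and 9 RPKM untreated and 4, 3 and 6 with ATRA and overlapped, and HP, haptoglobin, was at 1 to 3 RPKM.

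The transcription factors known to act on granule genes included genes that rose and 1 that fell with ATRA. Of 12 such genes 11 were tested, and 4 rose and 1 fell, against 4.72% of all genes called in either direction. At the second threshold 5 were higher and 4 lower, against 8.71% and 11.6% of all genes. CEBPE, which drives the step past the promyelocyte, rose from 34, 32 and 37 RPKM to 116, 116 and 118 (3.40-fold, adjusted p = 1.81e-07). CEBPB rose from 6, 7 and 8 to 36, 45 and 39 (5.66-fold, adjusted p = 3.62e-07), CEBPA from 33, 35 and 36 to 56, 55 and 47 (1.51-fold, adjusted p = 0.000532) and GFI1, a repressor needed for granulocytes, from 53, 56 and 57 to 84, 85 and 86 (1.54-fold, adjusted p = 1.18e-05). MYB, a factor of immature haematopoietic cells, fell from 58, 54 and 64 RPKM to 26, 26 and 33 (0.482 times, adjusted p = 0.00039). SPI1, which encodes PU.1, was at 80, 86 and 85 untreated and 108, 102 and 105 with ATRA (adjusted p = 0.00119), and with both drugs it rose to 112, 111 and 110 (adjusted p = 0.000185). With palbociclib alone none was called, and CEBPE (48, 39 and 47 RPKM, adjusted p = 0.0274) and SPI1 (102, 95 and 93, adjusted p = 0.0499) were higher and CBFB lower (adjusted p = 0.0338) at the second threshold. Between the combination and palbociclib, the replicate block added GUSB (higher, limma adjusted p = 0.000138), XYLT1 (higher, 0.000701) and GATA2 (lower, 4.27e-05) to the called genes of these lists. For ATRA against untreated the block added GUSB (adjusted p = 0.00021), FUCA1 (0.000289) and SPI1 (0.000846), all higher. It also added CHST11 (0.000934) and GATA2 (7.49e-05), both lower.

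**Figure D5:**
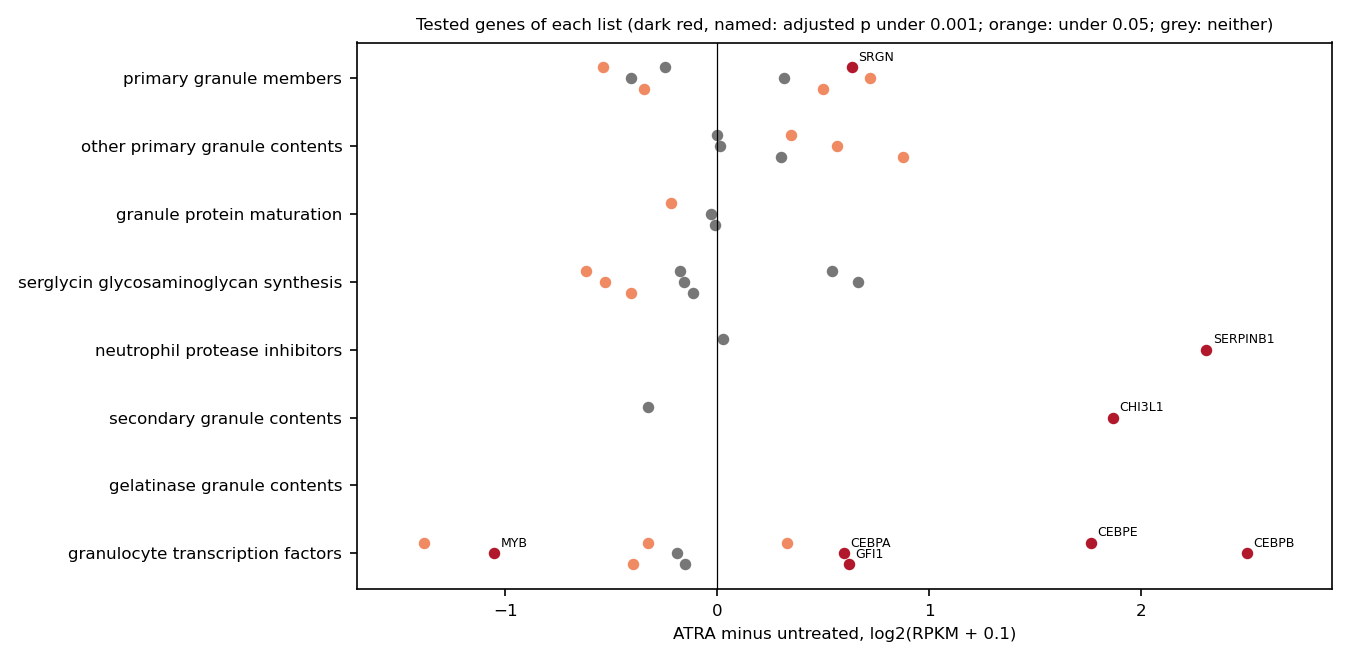
Difference between ATRA and untreated cells in log2(RPKM + 0.1) (horizontal axis) for the tested genes of 8 lists (rows); each point is a gene, dark red and named at an adjusted p under 0.001, orange under 0.05 and grey neither. The granule genes lie between -0.54 and 0.72, SERPINB1 at 2.31 and CEBPB at 2.50, and no gelatinase granule gene was tested.

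By the smallest root mean square difference from the mean profile of the 8 tested genes over the 12 libraries, the most similar of 2037 genes included GSS, CCL5, PSMD10 and EEF1A1P19, at 0.03 to 0.06 on the log2 scale. The mean profile itself had an SD of 0.09, against 0.32 for SRGN alone, since genes on opposite sides were averaged. EEF1A1P19 is a pseudogene copy of an abundant gene and its value is uncertain.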

How the data were processed

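RNA was measured in 12 poly(A) libraries of HL-60 cells, 3 for each of 4 groups taken from the sample labels. The authors used HISAT2 (genome hg38) and then htseq-count at its defaults (versions and annotation release not given in the sources used here). They deposited unpooled RPKM rounded to whole numbers, a score in steps of 1 rather than counts. The study's supplement gives only an average read number per sample. The depth of each library is unknown, so no counting error is given and errors are SDs over libraries. From these values, limma 3.58.1 in R 4.3.3 modelled log2(RPKM + 0.1) in all 12 libraries with a mean for each group and a variance trend, for 7820 genes with at least 5 RPKM in at least 3 libraries, with Benjamini-Hochberg adjustment over all genes of a comparison, and was tested on simulated data. This replaces the authors' voom test, which needs counts. Fold changes refer to RPKM + 0.1 and understate low genes. Alternatives were the filter, pseudocount, scaling, variance trend, replicate block, threshold, fitted groups and leaving out each library. Deviations of same-numbered libraries from their group means correlated at 0.438 to 0.908 between treated groups, which pairs those. Between untreated and treated libraries they correlated at 0.0453 to 0.367, all positive but weaker, so whether those were paired is unclear. Named genes are the 10 genes, genes of the role lists that were called or act on or neighbour them, and the 5 genes nearest their mean profile, of which 1 is not reported here. The genes and lists were chosen with earlier results of these data known. Tables and plots used Python 3.11.15. Coordinates are from GENCODE v44.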

Additional observations from a re-analysis of the deposited data

How the results depend on the processing

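With the replicate block, the granule genes called were 3 for ATRA and 3 for both drugs against untreated cells (AZU1 and LYZ beside SRGN) and 2 for both drugs against palbociclib (LYZ beside SRGN), where without the block it was 1 each. The block changed no other call of the 8 genes at 0.001. At 0.05 in limma it added MPO (adjusted p = 0.00447), PRTN3 (0.0315) and CTSG (0.0403) for ATRA against untreated. For both drugs against untreated it added MPO (0.00751) and PRTN3 (0.0366), and for palbociclib against untreated AZU1 (0.00287). Without the block, the counts of the 3 comparisons at an adjusted p under 0.05 were 5, 5 and 5. In fits of the 2 groups compared alone, the counts at 0.001 were 0, 0 and 0, as fewer libraries estimate the spread. SRGN stayed under 0.05 in these 3 limma fits (adjusted p = 0.00464, 0.00362 and 0.0103). Leaving out 1 library gave, at 0.001, 0 to 1 for ATRA against untreated and 0 to 1 for both drugs against palbociclib. Where an arm was left with 2 libraries, the fit pooled the spread over all groups. No called difference changed sign under any alternative run. Small uncalled ones did. With library medians centred, PRTN3 differed by 0.010 between both drugs and ATRA. Over the fits leaving out 1 library, the log2 differences for palbociclib against untreated ran from -0.050 to 0.15 for PRTN3, -0.021 to 0.21 for LYZ and -0.0047 to 0.13 for RNASE2. Between both drugs and ATRA they ran from -0.13 to 0.080 for PRTN3, -0.021 to 0.045 for LYZ, -0.21 to 0.16 for CFD, -0.029 to 0.096 for RNASE2, -0.013 to 0.067 for SRGN and -0.026 to 0.083 for MPO. For the departure from additivity they ran from -0.17 to 0.043 for PRTN3, -0.092 to 0.042 for RNASE2, -0.090 to 0.0031 for SRGN, -0.12 to 0.0070 for MPO and -0.20 to 0.033 for LYZ. Over all genes tested, the 3 comparisons with a call gave 369, 629 and 243 genes, 722, 1204 and 481 with the replicate block, and 78, 71 and 21 in fits of the 2 groups alone. ELANE and BPI were left out by the chosen filter of 5 RPKM in 3 libraries. Fits with a lower filter or none include them, but at 0 to 2 RPKM, near the rounding step, no differences are given for them here.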

Other observations

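For some granule genes the highest library of a group had the same number in every treatment. MPO and LYZ were highest in library 3 of all 4 groups (1411, 1205, 1579 and 1269 RPKM for MPO), and AZU1 was highest in library 1 of all 4 groups (14, 22, 22 and 27 RPKM).

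The genes with a profile nearest to that of SRGN over the 12 libraries, among genes with a mean of at least 20 RPKM that varied at least as much, were GFI1, PTPN7, VAT1, PTPN6 and NADK, with root mean square differences of 0.06 to 0.09 on the log2 scale against an SD of 0.32 for SRGN. This search was added after the values were seen. For GFI1 the levels were 53 to 57 RPKM in untreated cells, 84 to 86 with ATRA, 56 to 61 with palbociclib and 90 to 93 with both drugs. GFI1 and SRGN share these libraries, so this is a description of the 12 points only.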
